A study of Rattus norvegicus with 6 samples.

Results

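The genes described here are 10 members of the short-chain dehydrogenase/reductase superfamily in rat liver: Dhrs7l1, Dhrs7, Dhrs1, Dhrs3, Dhrs4, Hsd11b1, Hsd17b2, Hsd17b6, Hsd17b13 and Cbr1. They were taken by symbol, through the RefSeq accession that the array design gives each probe, and 9 of the 10 had a matched probe, of 15284 gene symbols matched in all. No probe matched Dhrs7, which has no value here. Of 61657 probes other than controls, 34197 had no matched symbol, so a gene without a match may still have a probe. The genes were chosen by family membership with the corn oil and treated signals of these same arrays in view, so their signals are given as a description, with no test. The livers came from male Sprague-Dawley (Crl:CD(SD)) rats, bought at 5 weeks of age and kept on a basal diet. The controls were 3 rats given corn oil, and the treated group was 3 rats given bromodichloromethane (BDCM), a trihalomethane formed when drinking water is chlorinated, at 200 mg/kg/day. The labels give 28 days in one place and 9 weeks in another for the dosing, so its length is not settled here. The comparison asks how liver RNA of treated rats differed from that of vehicle rats.

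Short-chain dehydrogenases are enzymes that carry hydride between a substrate and NAD(H) or NADP(H), using a shared cofactor-binding fold and an active site built around a tyrosine and a lysine. In liver they set the balance between hydroxyl and carbonyl forms of steroids, retinoids, fatty acyl groups and foreign carbonyl compounds. Members that use NADPH mostly reduce in cells, and members that use NAD mostly oxidise. Many sit in the endoplasmic reticulum or on lipid droplets, and others are cytosolic, mitochondrial or peroxisomal.

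Promoter sequence from RefSeq (GRCr8) was found for 7 of the 10 genes. Hsd11b1, Hsd17b2 and Hsd17b6 had no entry. The 250 bases upstream of the annotated start are shown for Dhrs7l1, whose signal differed most between the groups, for Dhrs7, the next gene on chromosome 6 and on the same strand, and for Hsd17b13, the 1 gene of the 7 with a match to a searched motif. The windows are chr6:97047900-97048149 (minus strand), chr6:97083745-97083994 (minus strand) and chr14:6056539-6056788 (plus strand). They are written 5′ to 3′, and capitals mark the motif match.
Dhrs7l1: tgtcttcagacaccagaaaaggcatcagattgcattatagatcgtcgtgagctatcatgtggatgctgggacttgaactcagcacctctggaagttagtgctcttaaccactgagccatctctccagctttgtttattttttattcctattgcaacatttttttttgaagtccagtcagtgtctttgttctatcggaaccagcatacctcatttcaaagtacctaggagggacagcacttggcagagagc
Dhrs7: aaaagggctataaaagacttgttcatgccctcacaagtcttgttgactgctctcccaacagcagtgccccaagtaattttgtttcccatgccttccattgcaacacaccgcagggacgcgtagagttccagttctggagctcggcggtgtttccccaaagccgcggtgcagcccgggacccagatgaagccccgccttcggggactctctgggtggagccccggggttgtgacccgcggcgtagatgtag
Hsd17b13: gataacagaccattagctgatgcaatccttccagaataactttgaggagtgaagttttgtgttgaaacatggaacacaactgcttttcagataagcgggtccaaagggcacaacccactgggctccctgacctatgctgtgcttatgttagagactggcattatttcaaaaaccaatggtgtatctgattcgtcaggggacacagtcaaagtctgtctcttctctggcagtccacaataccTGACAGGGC

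Over the 300-base window (250 bases before the start and 50 after it), the Dhrs7l1 promoter was 47.3% G+C and that of its neighbour Dhrs7 60%, against a median of 51.7% over 33469 rat promoters. The Hsd17b13 window was 48% G+C, Dhrs3 49%, Cbr1 51.7%, Dhrs4 57% and Dhrs1 69.3%. Motif letters were searched on both strands. TTCNNNGAA, the letters bound by STAT5, was in 8.87% of all promoters and in none of the 7. GTTAAT, bound in part by HNF1, was in 7.45% of all promoters and in none of the 7, and CAAAGTCCA, an HNF4 site, in 0.391% and none of the 7. TGACNNNGC, the letters bound by NRF2 with a small Maf protein, was in 12.1% of all promoters and in 1 of the 7. That match, the capitals in the Hsd17b13 sequence, begins 9 bases before the start on the plus strand. A match is a description of letters and not of binding.

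Each liver was hybridised to its own 1-colour Agilent array. Signals below are the scanner's processed Cy3 signal divided by the 75th percentile of the array, on a linear scale, so that 1 is the signal of a probe at that percentile. Across the 6 arrays the 75th percentile lay between 670 and 825 fluorescence units, and 61.3% to 66.9% of probes were well above background. All 14 probes of the 9 genes were well above background on all 6 arrays, and none was saturated. Slide 1 held the 3 corn oil arrays and treated replicate 1, and slide 2 held treated replicates 2 and 3. Only slide 1 held both groups, so a value within a batch can be given for that slide alone, and it rests on 1 treated animal. In the fit across 28995 genes and transcripts, 9.36% were called in either direction, 3.41% lower and 5.96% higher in treated livers. For 16.0% of them every treated liver was below every corn oil liver, and for 18.4% every treated liver was above. Bulk liver RNA cannot tell fewer cells of a type from less RNA per cell.

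Dhrs7l1, named for its likeness to Dhrs7, was 129.5-fold lower in treated livers than in the controls. Its signal was 15.9, 25.6 and 20.3 in the corn oil livers (mean 20.6 ± 4.87, SD, n = 3) and 0.185, 0.0811 and 0.254 in the treated livers (0.173 ± 0.0870, SD, n = 3). The lowest corn oil liver was far above the highest treated liver, and the treated livers also differed among themselves, with replicate 2 lowest. The log2 fold change, treated over corn oil, was -7.02 (SE 0.43), so the treated signal was 0.772% of the corn oil signal. In fluorescence units the corn oil arrays read 10652, 18672 and 15379, and the treated arrays 153, 66.7 and 190. All 3 treated readings were well above background, which on the 6 arrays began at a relative signal between 0.0170 and 0.0325. With a normexp background correction the log2 fold change was -6.40, and within slide 1 it was -6.77.

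**Figure D1:**
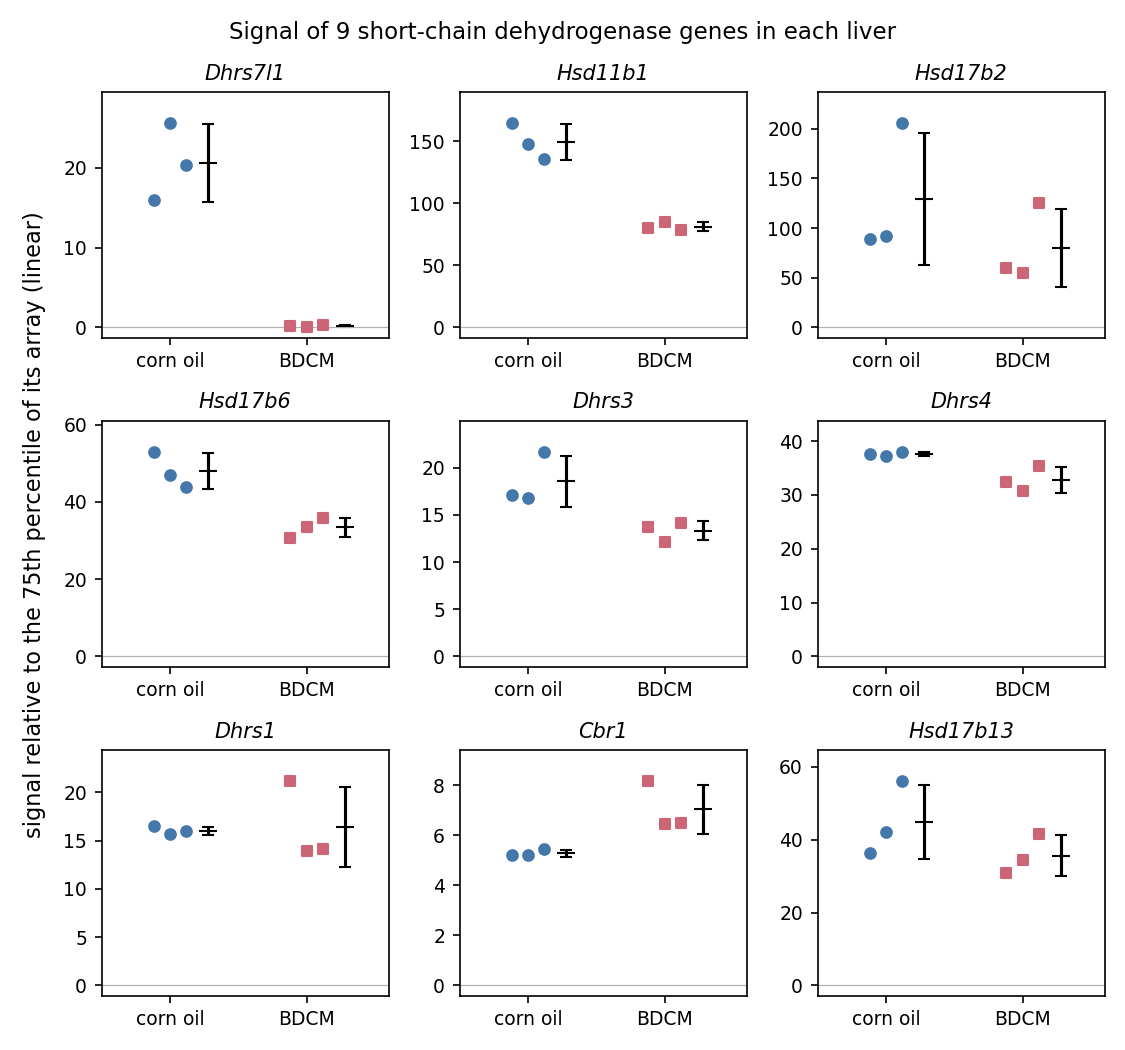
Signal of the 9 measured genes in each liver; the vertical axis of each panel is the signal relative to the 75th percentile of its array (linear, own scale per panel), points are animals, and the bar beside them is the mean ± SD of 3 animals given corn oil or bromodichloromethane (BDCM). The groups do not overlap for Dhrs7l1, Hsd11b1, Hsd17b6, Dhrs3 and Dhrs4 (treated lower) or for Cbr1 (treated higher). Over all features, 16.0% lay wholly lower and 18.4% wholly higher in treated livers. The groups overlap for Hsd17b2, Dhrs1 and Hsd17b13. With spike-in scaling Dhrs3, Dhrs4 and Hsd17b13 change sign.

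Of the steroid enzymes, Hsd11b1 and Hsd17b6 were lower in every treated liver than in any control, while the groups overlapped for Hsd17b2. Hsd11b1 regenerates active glucocorticoid, corticosterone in the rat, from its inactive 11-keto form with NADPH. Its signal was 165, 148 and 136 in corn oil livers (149.7 ± 14.5, SD, n = 3) and 80.6, 85.1 and 78.3 in treated livers (81.3 ± 3.46, SD, n = 3). The treated livers were tightly grouped, and the treated signal was 54.4% of the corn oil signal (log2 fold change -0.88, SE 0.10). Within slide 1 the log2 fold change of Hsd11b1 was -0.89.

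Hsd17b6 oxidises 3-alpha-hydroxysteroids such as androstanediol and can also act on retinol. It was at 53.02, 47.05 and 43.96 in corn oil livers (48.0 ± 4.602, SD, n = 3) and at 30.7, 33.6 and 35.8 in treated livers (33.4 ± 2.56, SD, n = 3). The groups did not overlap, and the log2 fold change was -0.52 (SE 0.11). With scaling to spike-in probes it was -0.04, so the size of the Hsd17b6 difference rests on the scaling. Hsd17b2 oxidises estradiol and testosterone to their 17-keto forms with NAD. Its signal was 89.1, 92.05 and 206 in corn oil livers (129 ± 66.7, SD, n = 3) and 59.6, 54.6 and 125 in treated livers (79.7 ± 39.2, SD, n = 3). Replicate 3 was the highest animal in both groups, and the treated one was above 2 of the 3 controls. The Hsd17b2 log2 fold change of -0.69 (SE 0.44) ranged from -1.06 to -0.29 when 1 animal was left out.

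As scaled here, Dhrs3 and Dhrs4 had log2 fold changes nearer to 0 than the steroid enzymes above, though Dhrs3 was close to Hsd17b6 (-0.52). Dhrs3 reduces all-trans-retinal to retinol and so limits retinoic acid formation. Its signal was 17.1, 16.8 and 21.7 in corn oil livers (18.5 ± 2.74, SD, n = 3) and 13.7, 12.2 and 14.1 in treated livers (13.3 ± 1.01, SD, n = 3). Every treated liver was lower, with a log2 fold change of -0.47 (SE 0.13). Dhrs4 is a peroxisomal NADPH-dependent reductase of retinal and other carbonyl compounds. It was at 37.6, 37.3 and 38.0 in corn oil livers (37.6 ± 0.376, SD, n = 3) and at 32.3, 30.7 and 35.4 in treated livers (32.8 ± 2.37, SD, n = 3). The controls hardly varied, and the treated livers lay below them by a small margin (log2 fold change -0.20, SE 0.09). Both directions turned under spike-in scaling, where the log2 fold change was 0.01 for Dhrs3 and 0.28 for Dhrs4.

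Dhrs1 is a carbonyl reductase of the endoplasmic reticulum. It was at 16.5, 15.6 and 16.0 in corn oil livers (16.0 ± 0.417, SD, n = 3) and at 21.2, 13.9 and 14.1 in treated livers (16.4 ± 4.15, SD, n = 3). Treated replicate 1 was above all controls and the other treated livers were below all of them, so the groups overlapped. The log2 fold change of 0.01 (SE 0.18) became -0.19 without treated replicate 1. That liver is also the 1 treated array on slide 1, where the log2 fold change was 0.40, so animal and slide cannot be told apart for it.

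Cbr1, the cytosolic NADPH-dependent carbonyl reductase that acts on quinones, prostaglandins and many drugs, was the 1 measured gene of the 9 that was higher in every treated liver. Its signal was 5.21, 5.20 and 5.46 in corn oil livers (5.29 ± 0.144, SD, n = 3) and 8.19, 6.44 and 6.48 in treated livers (7.04 ± 0.997, SD, n = 3). The controls were nearly identical, and treated replicate 1, the treated array of slide 1, was highest. The log2 fold change was 0.40 (SE 0.12), or 1.32-fold, and 0.63 within slide 1. With spike-in scaling it was 0.89. No probe was matched by accession to Cbr1l1, the next gene to Cbr1 in the GRCr8 order. A probe of a carbonyl reductase can pick up a near-identical copy, so the Cbr1 value may hold signal from more than 1 gene.

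Hsd17b13 is a hepatocyte protein of the lipid droplet surface with retinol dehydrogenase activity. It was at 36.4, 42.1 and 56.2 in corn oil livers (44.9 ± 10.2, SD, n = 3) and at 30.8, 34.4 and 41.7 in treated livers (35.6 ± 5.55, SD, n = 3). The highest treated liver was above the lowest control, so the groups overlapped. The log2 fold change was -0.32 (SE 0.19), and it was 0.16 with spike-in scaling. Hsd17b11, the neighbouring lipid droplet dehydrogenase, was at a log2 fold change of -0.07 (SE 0.12), with an adjusted p of 0.74. Plin2, the main coat protein of hepatocyte lipid droplets, had a log2 fold change of 0.34 (adjusted p = 0.15).

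Of the 9 measured genes, 7 had a log2 fold change below 0 and 2 above, with a median of -0.47 against 0.0014 over all 28995 features. Every treated liver was below every control for 5 genes and above for 1, against 16.0% and 18.4% of all features. The groups overlapped for 3. The fit across all features placed 3 of the 9 past its threshold, all lower (Dhrs7l1, Hsd11b1 and Hsd17b6), beside 3.41% of all features. With spike-in scaling it placed 1 lower (Dhrs7l1) and 2 higher (Dhrs1 and Cbr1), beside 311 lower and 12685 higher among all 28995 features. Without treated replicate 2 it placed 1, beside 335 of all features. The genes were chosen with this contrast known, so these counts are no test of them and nothing is read from them. Within groups the animals were not ordered alike by every gene: treated replicate 3 was the highest treated liver for 6 of 9 genes, and treated replicate 2 the lowest for 6 of 9.

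Genes with more than 1 probe gave the same direction from each of them. The probes of Hsd11b1 had log2 fold changes of -0.80 and -0.88, and both probes of Hsd17b6 had -0.52. The probes of Hsd17b13 had -0.32 and -0.22. The 3 probes of Cbr1 had 0.45, 0.40 and 0.39. The remaining 5 genes had 1 probe each, so Dhrs7l1, Hsd17b2, Dhrs1, Dhrs3 and Dhrs4 have no second probe to set beside the first.

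**Figure D2:**
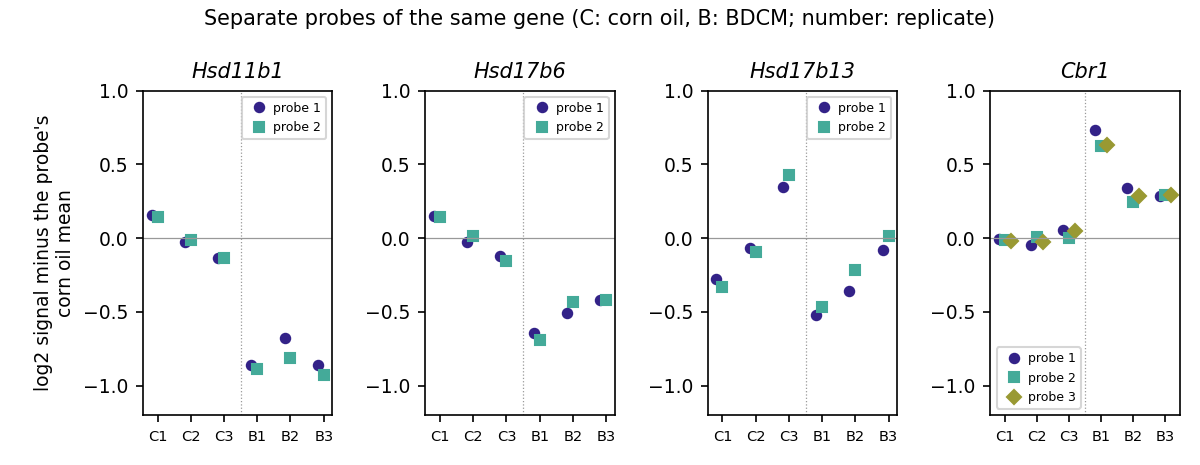
Log2 signal of each probe minus its own mean over the 3 corn oil arrays, for the 4 genes with more than 1 probe; the horizontal axis lists the arrays (C, corn oil; B, BDCM; the number is the replicate) and marker shapes are probes. Probes of the same gene follow each other: Hsd11b1 lies near -0.80 to -0.88 in treated livers, Hsd17b6 near -0.52, Hsd17b13 between -0.32 and -0.22 on average, and Cbr1 between 0.39 and 0.45.

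The scale decides the direction of the smaller differences. Scaling to the 8 spike-in probes moved the median log2 fold change of all features from 0.0014 to 0.48. On that scale Dhrs7l1 was at -6.53, Hsd11b1 at -0.39, Hsd17b2 at -0.20 and Hsd17b6 at -0.04. Dhrs3, Dhrs4 and Hsd17b13 turned from below 0 to above 0, and the median of the 9 genes was 0.01. Relative to the shift of all features, the order of the genes did not depend on this choice, because a scaling moves every gene of an array by the same amount.

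**Figure D3:**
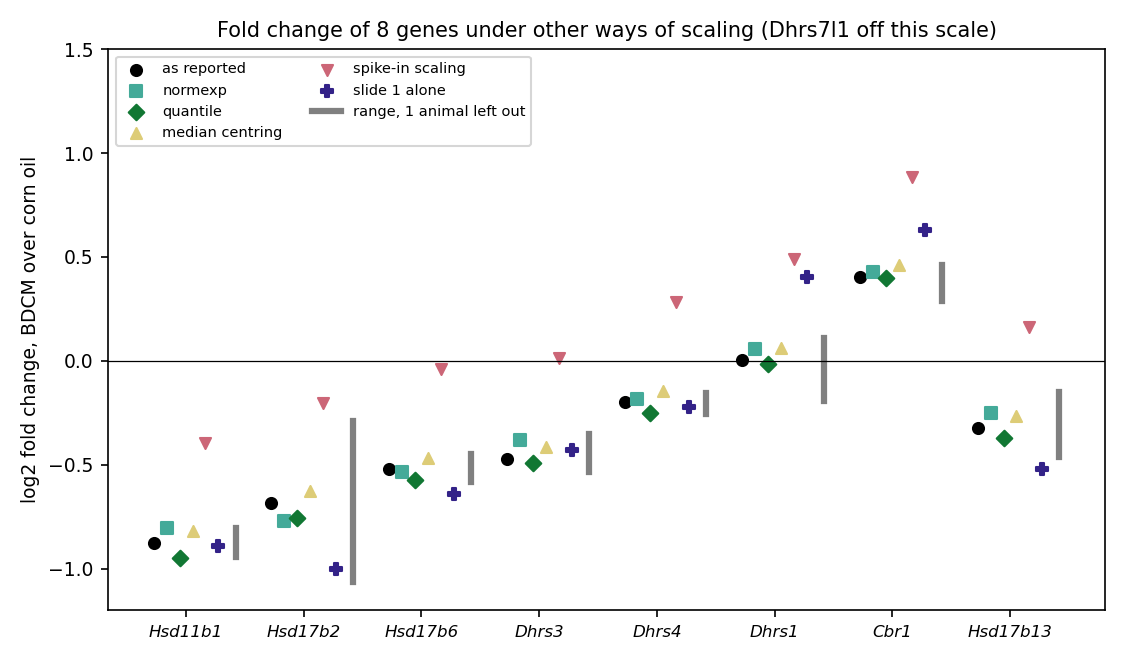
Log2 fold change (BDCM over corn oil, vertical axis) of 8 of the 9 genes as reported and under other ways of correcting and scaling the signals, within slide 1, and as the range when 1 animal is left out (grey bars); Dhrs7l1, at -7.02, is off this scale. Hsd11b1 and Hsd17b2 stay below 0 and Cbr1 above 0 in all settings drawn, whereas Dhrs3, Dhrs4 and Hsd17b13 lie above 0 with spike-in scaling and Dhrs1 lies on both sides of 0.

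The 5 genes with the profile nearest to that of Dhrs7l1 over the 6 arrays were Cdh17, Inmt, Or7a44, Zfp37 and Fmo1. Likeness was the root mean square difference of log2 signals after subtracting the corn oil mean of each gene, among 11396 named genes. It was 0.95 for Cdh17, a liver-intestine cadherin, and 1.20 for Inmt, an indolethylamine N-methyltransferase. Cdh17 was at 13.3, 18.7 and 5.06 in corn oil livers and at 0.234, 0.0934 and 0.251 in treated livers. The nearest genes were picked by these same values, so a shared order of animals is no further sign of likeness. Inmt was at 6.75, 7.83 and 3.32 in corn oil livers and at 0.104, 0.0781 and 0.0196 in treated livers. Inmt was well above background on 2 of 3 treated arrays and Or7a44 on 0 of 3, so their treated levels and their distances from Dhrs7l1 are partly set by background. The differences for the others were 1.52 for Or7a44, an olfactory receptor gene, 2.26 for Zfp37, a zinc finger gene, and 2.40 for Fmo1, a flavin monooxygenase. Of the genes beside Dhrs7l1 in the genome, Dhrs7 had no matched probe. Ppm1a, a protein phosphatase gene 3 places away, was at a log2 fold change of -0.05 (SE 0.22), with an adjusted p of 0.91.

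The rest of the superfamily was listed by role, as 63 further genes, of which 49 were measured. Of these, 3 fell and 3 rose at an adjusted p under 0.05, and 43 did not pass, beside the 9.36% of all features called. Far1, among those that rose, entered the test only through the treated group, where it is high. With only probes well above background on all 6 arrays, 5 fell and 2 rose, beside 1073 and 1728 of 26870 features. The median log2 fold change of the 49 genes was -0.10, with 31 below 0 and 18 above. With spike-in scaling that median was 0.38, with 7 below 0. The treated livers lay wholly below the controls for 18 of the 49 and wholly above for 8, against 16.0% and 18.4% of all features.

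Among the steroid enzymes of that list, 2 of 9 measured genes fell and none rose. Over all features, 3.41% were called lower and 5.96% higher. The median of these 9 was -0.32, and 0.16 with spike-in scaling. Hsd3b1 and Hsd3b2 belong to the 3-beta-hydroxysteroid dehydrogenases. Hsd3b1 was at 10.1, 10.4 and 8.20 in corn oil livers and at 5.06, 4.08 and 6.23 in treated livers. No treated liver reached a control, and it fell by 0.92 in log2 units (SE 0.18, with an adjusted p of 0.034). Hsd3b2 was at 6.94, 7.47 and 6.06 in corn oil livers and at 3.63, 3.28 and 4.80 in treated livers. It fell by 0.82 in log2 units (SE 0.17, with an adjusted p of 0.036), again with no overlap. With spike-in scaling the adjusted p was 0.090 for Hsd3b1 and 0.17 for Hsd3b2, which ended both calls. When its probes were averaged, Hsd3b1 was at -0.64 and its call ended (adjusted p = 0.25). Hsd3b5, a further copy, had a log2 fold change of -0.67 (adjusted p = 0.076). Hsd3b1, Hsd3b2 and Hsd3b5 are related copies, and their sequences were not compared here. Their probes may share signal, so the 2 calls may not be separate.

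Among 8 measured retinoid enzymes, 1 fell and none rose, beside 3.41% of all features called lower and 5.96% called higher. The gene that fell was Rdh16, a microsomal dehydrogenase that oxidises retinol and 3-alpha-hydroxysteroids. Its signal was 10.1, 17.6 and 13.6 in corn oil livers and 4.21, 5.01 and 2.96 in treated livers. All treated livers were lower than all controls, and the change was -1.76 in log2 units (SE 0.27, with an adjusted p of 0.019), or 3.38-fold lower. The median of the 8 genes was -0.24, and 0.24 with spike-in scaling.

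In the acyl, sterol, ketone body and prostaglandin group, 2 of 15 measured genes rose and none fell, with a median of -0.07. Over all features, 5.96% were called higher and 3.41% lower. Bdh2, a cytosolic dehydrogenase of hydroxybutyrate and related acids, was at 0.346, 0.475 and 0.516 in corn oil livers and at 0.853, 0.693 and 0.727 in treated livers. It rose by 0.78 in log2 units (SE 0.17, with an adjusted p of 0.046), and the call ended with quantile normalization (adjusted p = 0.050) and with slide as a random block (adjusted p = 0.051). Far1, which reduces fatty acyl-CoA to fatty alcohol for ether lipids, was at 0.0328, 0.0329 and 0.0299 in corn oil livers and at 0.0576, 0.0543 and 0.0478 in treated livers. It rose by 0.74 (SE 0.10, adjusted p = 0.017). Its probe was dim, well above background on 2 of 3 corn oil arrays, so it entered the test only through the treated group, where it is high, and with a normexp background correction its log2 fold change was 0.10 (adjusted p = 0.43). Hpgd, which inactivates prostaglandins, had a log2 fold change of -0.63 (adjusted p = 0.088).

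In the carbonyl, cofactor and sugar group, 1 of 17 measured genes rose and none fell, with a median of 0.10. Over all features, 5.96% were called higher and 3.41% lower. The gene that rose was Nmral1, an NADPH-sensing protein. Its signal was 4.89, 4.31 and 5.18 in corn oil livers and 8.19, 6.99 and 7.09 in treated livers. All treated livers were higher, by 0.63 in log2 units (SE 0.11, with an adjusted p of 0.027). Cbr3, the closest relative of Cbr1 on the list, had a log2 fold change of -0.29 (adjusted p = 0.18), and Dcxr, a reductase of dicarbonyls and xylulose, -0.52 (adjusted p = 0.057). When 1 animal was left out, the calls of Rdh16, Hsd3b1 and Hsd3b2 held in 1 of 6 fits each, and those of Bdh2 and Nmral1 in 0 of 6, with adjusted p between 0.061 and 0.11 for Bdh2 and between 0.054 and 0.084 for Nmral1. Within slide 1, which leaves 1 treated liver assumed to vary like the controls, the directions of these 6 genes held but none of the calls did, with adjusted p between 0.13 and 0.21 in limma. The values there were -1.67 for Rdh16, -0.92 for Hsd3b1, -0.91 for Hsd3b2, 0.96 for Bdh2, 0.85 for Far1 and 0.78 for Nmral1.

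**Figure D4:**
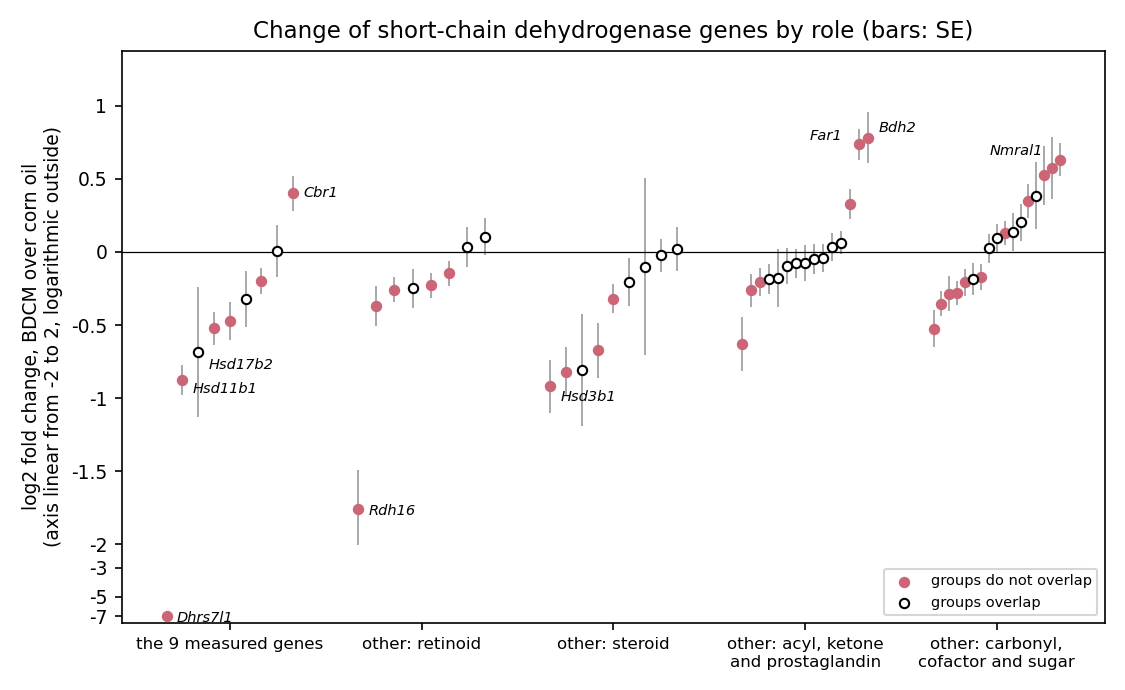
Log2 fold change (BDCM over corn oil, vertical axis; linear from -2 to 2, logarithmic outside) with its SE for the 9 measured genes and for the 49 other family genes grouped by role; filled points mark genes whose groups of 3 livers do not overlap. Dhrs7l1 lies at -7.02, Rdh16 at -1.76 is the lowest of the other family genes, and Bdh2 at 0.78 the highest; with spike-in scaling the median of all features is 0.48 instead of 0.0014, and many points near 0 change sign.

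Genes that share substrates, cofactor or location with these enzymes were read from a list of 23, of which 20 were measured. Of the 20, 1 fell and 3 rose, beside 3.41% of all features called lower and 5.96% called higher. Their median was -0.04. For the glucocorticoid step, H6pd supplies the NADPH that Hsd11b1 uses. It was at 13.6, 16.2 and 14.6 in corn oil livers and at 8.02, 10.8 and 11.6 in treated livers. The groups did not overlap, but its log2 fold change of -0.56 did not pass the test (adjusted p = 0.085). Nr3c1, the glucocorticoid receptor, had a log2 fold change of -0.29 (adjusted p = 0.18).

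For androgens, Srd5a1 rose. Srd5a1, a steroid 5-alpha-reductase, was at 12.1, 11.4 and 13.9 in corn oil livers and at 17.96, 24.3 and 21.6 in treated livers. It rose by 0.76 in log2 units (SE 0.14, with an adjusted p of 0.030) with no overlap.

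For retinoids, Adh7 and Aldh1a1 rose. Adh7, an alcohol dehydrogenase active on retinol, was at 2.01, 2.36 and 2.46 in corn oil livers and at 4.82, 7.32 and 6.63 in treated livers. Every treated liver was higher, by 1.44 in log2 units (SE 0.18, with an adjusted p of 0.013). Aldh1a1, which oxidises retinal to retinoic acid, was at 87.1, 77.2 and 67.1 in corn oil livers and at 133, 141 and 135 in treated livers. It rose by 0.83 in log2 units (SE 0.12, with an adjusted p of 0.017). Lrat, which esterifies retinol, had a log2 fold change of -0.23 (adjusted p = 0.57). With 1 animal left out, the call of Adh7 held in 4 of 6 fits, that of Aldh1a1 in 3 of 6, and that of Srd5a1 in 1 of 6. Within slide 1 the log2 fold changes were 0.53 for Srd5a1, 1.09 for Adh7 and 0.79 for Aldh1a1, and none of these 3 passed (adjusted p between 0.13 and 0.24 in limma).

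The labelled tissue carried its hepatocyte markers: all 8 were measured, Alb between 682 and 757 in corn oil livers and between 559 and 654 in treated livers. Their summed signal ran from 3850 to 4327 in corn oil livers and from 3309 to 3743 in treated livers, without overlap, and 2 of 8 fell (Serpina1, -0.50, adjusted p = 0.023; Cps1, -0.62, adjusted p = 0.027). The hepatocyte median of -0.25 became 0.23 with spike-in scaling. Summed cholangiocyte markers were at 1.64 to 1.81 in corn oil livers and at 2.46 to 3.62 in treated livers, with 1 of 4 higher (Epcam). Epcam had a mean of 1.05 in corn oil livers and 2.27 in treated livers, while the groups overlapped for Krt19, Krt7 and Spp1. Within slide 1 the median log2 fold change of the 4 was 0.0077, with 2 below 0. Of the other lists, 0 of 6 macrophage, 0 of 6 stellate, 0 of 2 neutrophil and 0 of 2 red cell markers passed in limma's test, and 1 of 3 endothelial markers fell (Lyve1). The summed endothelial signal was 44.4 to 47.3 in corn oil livers and 37.2 to 39.8 in treated livers. The red cell sum was 187 to 291 and 121 to 185, and the neutrophil sum 0.992 to 1.32 and 1.42 to 2.01. None of these sums overlapped between groups. Over single features, 16.0% lay wholly lower and 18.4% wholly higher in treated livers. Kdr made up most of the endothelial sum and Hbb most of the red cell sum, and neither passed (adjusted p = 0.12 and 0.13 in limma). With spike-in scaling the endothelial median of -0.24 became 0.24. The red cell median went from -0.86 to -0.37 and the neutrophil median from 0.47 to 0.95. The groups overlapped in the macrophage sum (123 to 165 and 113 to 152), the stellate sum (19.6 to 25.3 and 20.3 to 21.7) and the lymphocyte sum (1.099 to 1.63 and 1.52 to 1.82). Among 5 lymphocyte markers 1 passed, Cd3e, which was well above background on 0 of 3 corn oil arrays and so entered the test only through the treated group, where it is high. None of the measured markers was at 0. That follows from the filter, since a marker was measured only if well above background in all animals of a group. The part of these differences in the values of the dehydrogenases was not tested.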

How the data were processed

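RNA from 6 rat livers was measured on 1-colour (Cy3) Agilent arrays. Intensity values are those the authors' scanner software, Agilent Feature Extraction 10.7, wrote (per the submitters' processing notes); the deposited processed signal was used. The deposited value table, whose ratio equals signal over the 75th percentile of each array within 1% for at least 96.4% of probes, served as an alternative; the genome build was not used for any value. Control spots and 27 outlier probes were left out. The log2 processed signal minus the array's 75th percentile was tested with limma 3.58.1 (R 4.3.3; lmFit, eBayes, two-sided, Benjamini-Hochberg over 28995 features, threshold 0.05). A feature needed a probe that stood well above background in all 3 animals of either group, and the probe with the highest mean signal stood for a gene. The normexp alternative used median signals, since mean signals were not in the columns used here. The code was tested on simulated data. The genes and lists were chosen with earlier results of these data known. Named genes were all 10 members, list genes past the threshold with the largest changes, and the 5 nearest profiles; genes with no call were named afterwards for their role. The values of 1 partner gene are not reported here. An exact permutation test of 3 against 3 cannot go below p = 0.1.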

Additional observations from a re-analysis of the deposited data

How the results depend on the processing

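Of 21 alternatives, 10 left the count of features called (2715) within 1.5 times, between 2328 and 3433. Spike-in scaling gave 12996 (311 lower, 12685 higher), with 3 of the 9 genes (1 lower, 2 higher), 19 other family genes (1 lower, 18 higher) and 9 partner genes called; 2545 of the 2715 calls kept their sign. It raised the higher share of calls from 63.6% to 97.6%; median centring gave 74.2%. Without a filter on dim probes, 609 features, 0 other family genes and 1 partner gene were called. With slide as a fixed block, 350 features, 1 of the 9 genes, 0 other family genes and 0 partner genes were called, and within slide 1 alone 120, 1, 0 and 0. Leaving out 1 animal gave 335 to 1232 features, 1 to 2 of the 9 genes, 0 to 3 other family genes and 0 to 3 partner genes. With slide as a random block, 2328 features, 3 of the 9 genes, 5 other family genes and 4 partner genes were called. At an unadjusted p under 0.05 in limma, 19 other family genes passed as reported and 19 without the filter. The number was 18 with slide as a fixed block and 20 with slide as a random block. Of the partner genes, 9 passed as reported, 7 with slide as a fixed block and 8 with slide as a random block. The causes of these changes were not tested. A left-out animal or slide 1 alone also leaves fewer animals.

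Animals shared replicate numbers across the groups. Same-numbered deviations correlated at 0.02 to 0.12, and each of the 6 arrays correlated best with its own number. Whether same-numbered animals shared more than a number was not tested. With the replicate block, 353 features, 1 of the 9 genes, 0 other family genes (16 at an unadjusted p under 0.05, limma) and 1 partner gene were called. The 3 animals a group and signal near background limit dim genes such as Far1.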
